A study of Mus musculus with 12 samples.

Results

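The genes described here are 10 cell cycle inhibitors and genes of the p53 pathway, which is often treated as a barrier to reprogramming: Cdkn1a, Cdkn1b, Cdkn2a, Cdkn2b, Cdkn2c, Cdkn2d, Trp53, Mdm2, Ccng1 and Gadd45a. Most of them slow proliferation, while Mdm2 opposes p53. They were taken by name, as the rows of the count table whose Ensembl identifiers carry these symbols, with earlier results of these data known. All 10 were among the 55573 genes of the table and among the 19174 genes with enough counts to be tested. The libraries hold RNA of fibroblasts cultured from E13.5 mouse embryos (MEFs) of strain C57BL/6, in which doxycycline switches on a cassette of Oct4, Sox2, Klf4 and Myc (OSKM), and they were made to ask how vitamin B12 acts early in reprogramming. All cells, controls included, carried the cassette and grew for 72 h in the medium used for induced pluripotent stem cells. MEF cells had no doxycycline and no added B12, MEF+B12 cells had 2 µM B12, OSKM cells had doxycycline at 1 µg/ml per the labels, and OSKM+B12 cells had both. The study's methods state a higher doxycycline concentration for cultured cells, so the concentration is uncertain. Uninduced cells never received doxycycline, so effects of the drug itself and of OSKM cannot be told apart. Cells of 3 embryos, called clones 1 to 3, each gave 1 library to each of the 4 groups, so n = 3 embryos a group and 12 libraries in all.

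The cell cycle is driven by cyclin-dependent kinases (CDKs), which phosphorylate the Rb protein and release E2F factors. Inhibitors of the CIP/KIP family (Cdkn1 genes) bind cyclin and CDK complexes, while those of the INK4 family (Cdkn2 genes) bind CDK4 and CDK6. The transcription factor p53 switches on Cdkn1a and other genes after damage or oncogene stress, and Mdm2 marks p53 for destruction. The Cdkn2a gene encodes both the INK4 protein p16Ink4a and, in another reading frame from another first exon, p19Arf, which blocks Mdm2. In cultured fibroblasts the Cdkn2a and Cdkn2b locus is known for being switched on as cells age.

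Before the members, the libraries themselves were compared. Their totals ranged from 56971244 to 79236795 counts, and the members had 564 to 19808 counts in each library, so counting error was small for all of them. Pou5f1, which encodes Oct4, was at most 0.468 CPM (counts scaled to a common library total, with TMM factors) in the 6 uninduced libraries, 18.5 to 20.7 CPM once clones 1 and 2 were induced, and just 2.86 and 2.33 CPM once clone 3 was. Clone 3 was therefore induced less strongly at this gene, and results are given without it where that changes a call. Sox2 was at most 0.838 CPM uninduced, 13.3 to 17.8 CPM in induced clones 1 and 2, and 2.33 and 2.18 CPM in induced clone 3. Myc was 16.38 to 23.25 CPM uninduced, 43.63 to 53.44 CPM in induced clones 1 and 2, and 20.05 and 21.88 CPM in induced clone 3. Klf4 was not higher with induction, at 118.5 to 143.3 CPM in uninduced and 108.3 to 122.5 CPM in induced libraries. The OSKM library of clone 1 stood apart in its pseudogenes. Over 1519 of them its log2 difference from the other libraries of its clone had an SD of 0.556, against 0.114 to 0.247 in the other 11 libraries, and calls that used it are also given without it. The titles of clone 1 carry a later year than those of clones 2 and 3. Xist was at most 0.0289 CPM in clone 1 and at least 219 CPM in clones 2 and 3, so embryo, sex and year cannot be told apart for clone 1. The 9 fibroblast markers summed to between 85010 and 136500 CPM, the 11 macrophage markers to between 1318 and 3366 CPM and the 4 epithelial markers to at most 4.71 CPM, and no marker was at 0 in all libraries. In bulk samples, fewer cells of a type and less RNA per cell cannot be told apart.

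The widest differences among the members lay between clones, and the stretches before the start sites of 6 of the 7 genes that differed between clones are shown first. They come from RefSeq (build GRCm38.p6), read 5′ to 3′ on the gene's strand, and end just before the first annotated transcribed base. Cdkn2a, Cdkn2b and Gadd45a were lowest in clone 1. The Cdkn2a gene has a start for each of its proteins, and the gene-level counts add them together, so p16Ink4a and p19Arf transcripts were not separated. The windows lie at chr4:89294654-89294853, chr4:89282193-89282392, chr4:89311040-89311239 and chr6:67037458-67037657, all on the minus strand. Capitals mark GGGCGG on either strand.
Cdkn2a, start of Arf: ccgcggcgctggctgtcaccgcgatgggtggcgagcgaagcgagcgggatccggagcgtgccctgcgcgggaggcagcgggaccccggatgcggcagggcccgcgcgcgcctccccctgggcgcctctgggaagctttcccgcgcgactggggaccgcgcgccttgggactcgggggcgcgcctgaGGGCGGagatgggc
Cdkn2a, start of Ink4a: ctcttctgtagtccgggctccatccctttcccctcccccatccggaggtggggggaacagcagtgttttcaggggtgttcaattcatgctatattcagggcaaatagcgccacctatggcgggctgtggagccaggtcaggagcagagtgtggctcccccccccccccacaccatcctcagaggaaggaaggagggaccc
Cdkn2b: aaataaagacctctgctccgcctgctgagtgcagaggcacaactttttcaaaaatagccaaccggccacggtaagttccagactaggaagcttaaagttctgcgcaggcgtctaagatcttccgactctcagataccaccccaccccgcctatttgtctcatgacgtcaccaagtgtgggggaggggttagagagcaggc
Gadd45a: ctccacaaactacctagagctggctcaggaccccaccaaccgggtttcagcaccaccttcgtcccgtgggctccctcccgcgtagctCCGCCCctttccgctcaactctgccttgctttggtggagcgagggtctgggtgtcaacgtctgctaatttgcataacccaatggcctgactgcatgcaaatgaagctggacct

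Mdm2, Ccng1 and Cdkn1a, which p53 is known to activate, were highest in clone 1. Their windows lie at chr10:117710759-117710958 and chr11:40755312-40755511 on the minus strand and at chr17:29090776-29090975, before the upstream start of Cdkn1a, on the plus strand. Capitals mark GGGCGG and the 10-base p53 half-site on either strand, which do not overlap here.
Mdm2: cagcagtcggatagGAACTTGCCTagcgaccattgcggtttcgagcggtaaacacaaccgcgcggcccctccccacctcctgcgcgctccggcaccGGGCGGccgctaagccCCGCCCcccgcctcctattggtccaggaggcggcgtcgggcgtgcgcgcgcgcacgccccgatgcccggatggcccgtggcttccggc
Ccng1: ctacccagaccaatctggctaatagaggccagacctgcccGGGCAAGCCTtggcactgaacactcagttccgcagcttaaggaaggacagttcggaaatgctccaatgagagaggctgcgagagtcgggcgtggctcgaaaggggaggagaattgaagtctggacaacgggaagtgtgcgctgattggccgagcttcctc
Cdkn1a: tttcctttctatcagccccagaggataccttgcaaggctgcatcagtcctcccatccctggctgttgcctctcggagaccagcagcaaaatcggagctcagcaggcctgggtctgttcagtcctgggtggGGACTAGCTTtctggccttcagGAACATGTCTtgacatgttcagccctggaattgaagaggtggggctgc

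A p53 half-site was present in these 3 windows, at 1, 1 and 2 places, and in none of the 4 windows of Cdkn2a, Cdkn2b and Gadd45a. The motif did not follow the clone differences in every window. The window of Trp53, which was not called between clones, held 1, while that of Cdkn1b, the seventh gene called, and the one before the downstream start of Cdkn1a held 0. Over all 13 windows before starts of members, 4 held one. Over all 32851 promoters of the RefSeq table, 5.59% held one in a window of 200 bases. Those windows were not cut or moved, while that of Cdkn2d was 52 bases long and some members' windows ended further upstream. Among the windows shown, GGGCGG was in those of Arf, Gadd45a and Mdm2, and it was in 10200 of all promoter windows. TATAAA (9.96% of promoters) and the E2F-type words TTTCGCGC or TTTGGCGC (0.551%) were in none of the 7 windows shown. Related words were not searched for, such as TTTCCCGC, which the Arf window holds. A match is a description of the letters only.

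Of the 10 members, 7 differed in level between the 3 clones once the groups were accounted for (edgeR quasi-likelihood F test on 12 libraries, Benjamini-Hochberg adjusted over all genes tested). Of all tested genes 37.8% did, so differing between clones was common in these cultures. Each clone came from a single embryo, and its libraries are not independent embryos. These tests, and those of clone pairs below, thus compare these particular cultures and do not measure the spread between embryos. Gadd45a, Cdkn2a and Cdkn2b were the members with the smallest adjusted p, 1.53e-06, 2.73e-06 and 1.03e-05. Cdkn2a and Gadd45a were also called with at least 1 on the log2 scale between a pair of clones, which held for 5.37% of genes. Without the OSKM library of clone 1 all 7 were still called, with adjusted p of at most 0.0118 (edgeR).

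**Figure D1:**
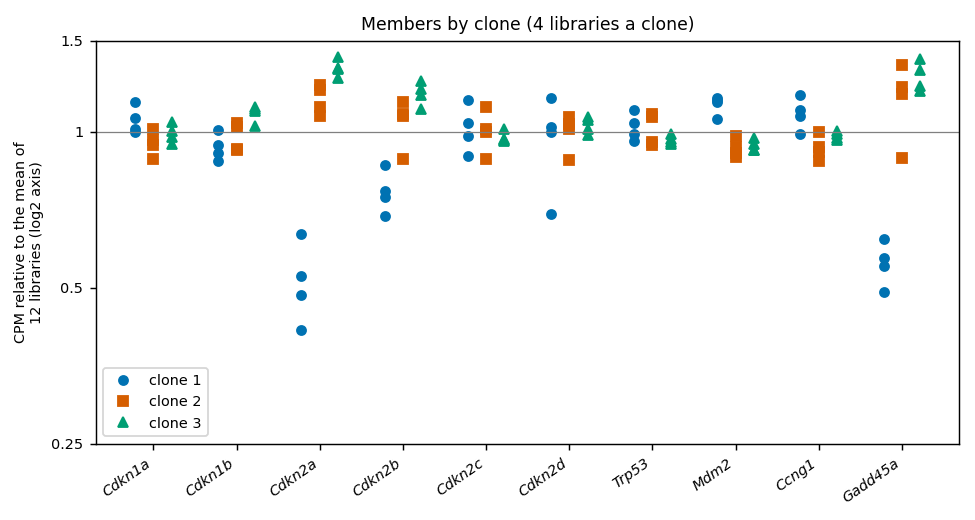
Level of each member in each library (CPM) divided by its mean over the 12 libraries, on a log2 axis, with 4 libraries a clone (clone 1 circles, clone 2 squares, clone 3 triangles). Cdkn2a, Cdkn2b and Gadd45a of clone 1 lie below the libraries of clones 2 and 3, and Mdm2 of clone 1 lies above them.

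Among the INK4 genes, Cdkn2a (ENSMUSG00000044303, chromosome 4, 89274471 to 89294653) held the widest difference. In MEF the level of Cdkn2a was 20.3, 39.4 and 44.7 CPM in clones 1, 2 and 3, and in MEF+B12 it was 16.9, 35.8 and 42.2 CPM. It was 13.3, 38.5 and 42.4 CPM in OSKM and 15.5, 34.3 and 40.7 CPM in OSKM+B12. Every library of clone 1 was below every library of the other clones. Clone 2 was 1.18 and clone 3 was 1.38 above clone 1 on the log2 scale, or 2.26-fold and 2.60-fold. Clone 3 was also above clone 2, by 0.21 ± 0.04 in a fit without clone 1 (adjusted p = 0.0151, edgeR), where 6.88% of genes were called.

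Cdkn2b (ENSMUSG00000073802, chromosome 4, 89306299 to 89311039), which encodes p15Ink4b, lies next to Cdkn2a and had the same order of clones. Clones 1, 2 and 3 had 29.9, 39.6 and 43.5 CPM of Cdkn2b in MEF and 26.0, 37.3 and 42.0 CPM in OSKM. With B12 the values were 26.6, 37.5 and 40.9 CPM in MEF+B12 and 23.8, 30.7 and 38.3 CPM in OSKM+B12. Clone 1 was again below the other 8 libraries. The log2 difference from clone 1 was 0.45 for clone 2 and 0.63 for clone 3. Between clones 2 and 3 it was 0.20 ± 0.04 (adjusted p = 0.039, edgeR).

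Gadd45a (ENSMUSG00000036390, chromosome 6, 67035096 to 67037457), which acts in growth arrest and repair after damage and is another known p53 target, shared this order although it lies on another chromosome. Gadd45a was read at 10.5, 22.8 and 23.3 CPM in the MEF libraries of clones 1, 2 and 3 and at 9.62, 20.6 and 22.3 CPM in those of MEF+B12. After induction it was at 9.29, 19.97 and 20.7 CPM in OSKM and 8.29, 15.1 and 20.2 CPM in OSKM+B12. Clone 1 was below the other 8 libraries. An antisense gene overlaps it, and the counting used strand. Clones 2 and 3 were 1.05 and 1.20 above it on the log2 scale, or 2.07-fold and 2.30-fold. They did not differ past the threshold from each other (0.16 ± 0.07, adjusted p = 0.223, edgeR). Its relatives Gadd45b and Gadd45g had 18.7 to 24.2 and 38.1 to 51.2 CPM in clone 1, against 32.6 to 41.5 and 45.1 to 77.3 CPM in the other clones.

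Mdm2, Ccng1 and Cdkn1a lay the other way. The p53 targets as a whole had no single direction. Of 26 p53 targets outside the members 16 were called between clones, beside 37.8% of all genes, and clones 2 and 3 were both below clone 1 for 9 of these, both above it for 3 and on either side of it for 4. Clones 1, 2 and 3 had 77.7, 62.4 and 61.8 CPM of Mdm2 in MEF and 76.9, 60.8 and 61.7 CPM in OSKM. With B12 the values were 76.4, 65.5 and 65.0 CPM in MEF+B12 and 70.7, 59.7 and 63.3 CPM in OSKM+B12. Mdm2 (ENSMUSG00000020184, chromosome 10, 117688875 to 117710758) was thus higher in every clone 1 library than in the other 8. Clones 2 and 3 were below clone 1 by log2 differences of -0.28 and -0.26 (adjusted p = 0.000432 for the clone terms, edgeR).

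In MEF the level of Ccng1 was 299, 254 and 251 CPM in clones 1, 2 and 3, and in MEF+B12 it was 272, 237 and 246 CPM. It was 279, 232 and 254 CPM in OSKM and 251, 222 and 244 CPM in OSKM+B12. Ccng1 (ENSMUSG00000020326, chromosome 11, 40748552 to 40755311), which encodes the p53 target cyclin G1, was highest in clone 1 in each group, but the ranges of the clones overlapped. Its log2 differences from clone 1 were -0.22 in clone 2 and -0.14 in clone 3 (adjusted p = 0.00567, edgeR), and the call was lost without clone 2 (adjusted p = 0.0626).

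Cdkn1a (ENSMUSG00000023067, chromosome 17, 29090976 to 29100727), which encodes p21, had a smaller difference of the same direction. Cdkn1a was read at 172, 153 and 158 CPM in the MEF libraries of clones 1, 2 and 3 and at 160.2, 142 and 147 CPM in those of MEF+B12. After induction it was at 153, 146 and 151 CPM in OSKM and 150.5, 134 and 143 CPM in OSKM+B12. Clone 1 was highest in each group, and clone 2 was lowest in each. The log2 difference from clone 1 was -0.15 in clone 2 and -0.09 in clone 3 (adjusted p = 0.0215, edgeR), and the call was lost without the filter on low counts (adjusted p = 0.0672) and without clone 2 (adjusted p = 0.151).

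Cdkn1b (ENSMUSG00000003031, chromosome 6, 134920401 to 134925513), which encodes p27, was lowest in clone 1 and highest in clone 3 in each group, by less. Clones 1, 2 and 3 had 47.3, 48.0 and 51.5 CPM of Cdkn1b in MEF and 44.3, 49.0 and 52.4 CPM in OSKM. With B12 the values were 42.8, 43.3 and 48.3 CPM in MEF+B12 and 41.2, 43.5 and 52.0 CPM in OSKM+B12. Clone 3 was 0.22 above clone 1 on the log2 scale (adjusted p = 0.00582, edgeR), and without clone 3 the call was lost (adjusted p = 0.289). The order clone 1 below clone 2 below clone 3, looked for after the values were seen, held in all 4 groups for 4 members, Cdkn1b, Cdkn2a, Cdkn2b and Gadd45a, and for 2.28% of tested genes. All 4 libraries of clone 1 lay outside the range of the other 8 for 4 members, Cdkn2a, Cdkn2b, Mdm2 and Gadd45a, and for 16.9% of tested genes.

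Trp53, Cdkn2c and Cdkn2d were not called between clones, with adjusted p of 0.249, 0.744 and 0.678 (edgeR). In fits of a pair of clones, 2 members were called between clones 2 and 3, against 5 between clones 1 and 3, where 27.3% of genes were called, and 6 between clones 1 and 2, where 28.2% were. The 5 calls that went without clone 1 were Gadd45a, Mdm2, Ccng1, Cdkn1b and Cdkn1a. The macrophage markers summed to between 2341 and 3366 CPM in clone 1 and between 1318 and 2711 CPM in the others, and the 14 cycling genes to between 861 and 951 CPM in clone 1 and between 722 and 808 CPM in the others. Their part in the members' differences was not tested.

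**Figure D2:**
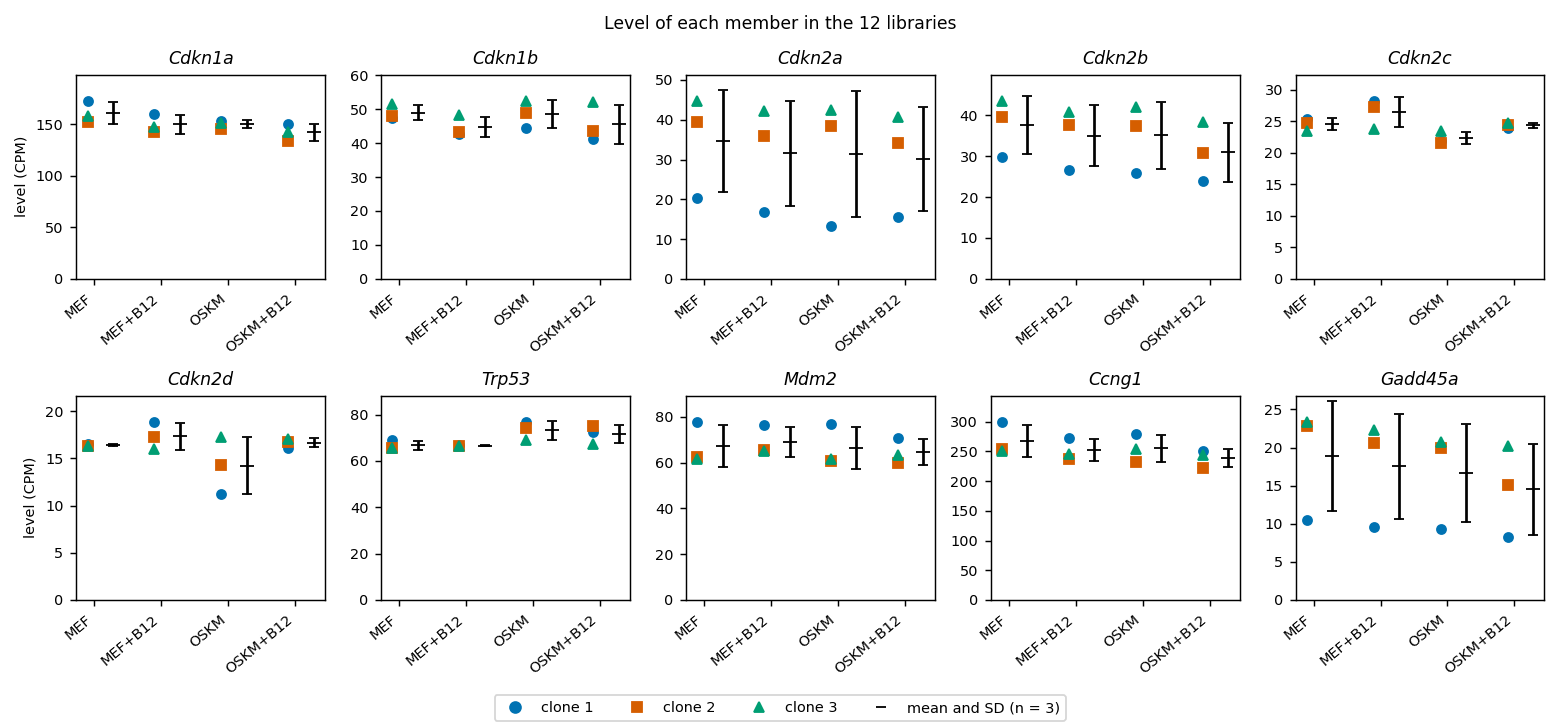
Level (CPM) of each member in the 12 libraries by group, with the clones as symbols and the mean and SD of each group (n = 3) in black. The SDs of Cdkn2a, Cdkn2b and Gadd45a are wide because clone 1 lies low in all 4 groups.

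OSKM induction changed the members by little. Averaged over both B12 states, 3 of 10 passed the threshold, against 9.73% of all tested genes. Gadd45a and Cdkn2b fell (5.26% of genes were called lower) and Trp53 rose (4.46% were called higher). The median log2 difference of the 10 members was -0.11, beside -0.0028 over all tested genes.

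Gadd45a was lower in the induced library of all 6 pairs taken within clone and B12 state, by -0.45 to -0.14 on the log2 scale. The fitted log2 difference was -0.22 ± 0.05, adjusted p = 0.0295 (edgeR), or 14.3% less. Cdkn2b was lower in 6 of 6 pairs too, by -0.29 to -0.05, with -0.15 ± 0.04, adjusted p = 0.0335 (edgeR). Lower values in 6 of 6 pairs were found for 5 members, these with Cdkn1a, Cdkn2a and Mdm2, and for 8.26% of genes.

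Trp53 (ENSMUSG00000059552, chromosome 11, 69580359 to 69591873), which encodes p53 itself, was the one member higher in 6 of 6 pairs, as were 7.34% of genes. In MEF the level of Trp53 was 68.8, 65.5 and 65.8 CPM in clones 1, 2 and 3, and in MEF+B12 it was 66.7, 66.4 and 66.5 CPM. It was 76.7, 74.2 and 68.8 CPM in OSKM and 72.3, 75.1 and 67.4 CPM in OSKM+B12. The 4 induced libraries of clones 1 and 2 lay above all uninduced libraries, while those of clone 3 lay within or just above their span. The log2 difference was 0.12 ± 0.03, adjusted p = 0.0467 (edgeR). In clone 3, where Pou5f1 was lowest, the pairs differed by 0.07 and 0.02, against 0.12 to 0.18 in the others. A difference of this response between clones was not called (adjusted p = 0.54, edgeR F test). Of the 31-base words of Trp53, 10.1% also occur in other genes, mainly the pseudogene Trp53-ps, which was between 0.898 and 1.57 CPM.

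These 3 calls were narrow. Without the OSKM library of clone 1 none of them passed, with adjusted p of 0.0533 for Gadd45a, 0.0597 for Cdkn2b and 0.0703 for Trp53 (edgeR), while 3.95% of all genes were called. Without clone 1 or without clone 2 none passed either, and without clone 3 all 3 did, together with Cdkn2c (log2 difference -0.20, adjusted p = 0.0191). Of the 21 genes of the other lists called with induction, 0 were called without clone 1 and 0 without clone 2. The losses in those fits were thus shared with genes of the other lists. Over all settings tried, 0 to 3056 of all genes were called for the induction average. The counts of members without a clone are not set beside a share of all genes in the same fit. With library totals in place of TMM scaling only Trp53 of the members passed, and the 3 members kept their direction under every setting tried.

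Cdkn1a missed the threshold although each pair was lower (-0.09 ± 0.03, adjusted p = 0.0813, edgeR). Cdkn2a had -0.15 ± 0.06, adjusted p = 0.164 and a single wide pair, -0.61 in clone 1 without B12. Without that OSKM library the Cdkn2a difference was -0.08, with an adjusted p of 0.223. Mdm2 and Ccng1 had log2 differences of -0.06 ± 0.03 and -0.07 ± 0.03, and Cdkn1b had 0.0036 ± 0.04. Without the OSKM library of clone 1 the differences of Cdkn1a, Mdm2, Ccng1 and Cdkn1b were -0.07, -0.07, -0.07 and 0.02, and none passed.

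Cdkn2c (ENSMUSG00000028551, chromosome 4, 109660876 to 109667189) and Cdkn2d (ENSMUSG00000096472, chromosome 9, 21288410 to 21291407) encode the INK4 proteins p18 and p19Ink4d. Cdkn2c was read at 25.4, 24.7 and 23.5 CPM in the MEF libraries of clones 1, 2 and 3 and at 28.2, 27.3 and 23.7 CPM in those of MEF+B12. After induction it was at 21.9, 21.6 and 23.5 CPM in OSKM and 24.0, 24.4 and 24.8 CPM in OSKM+B12. Clone 3 hardly moved with induction, at -0.0019 and 0.06 on the log2 scale, while the other 4 pairs lay between -0.23 and -0.16. The fitted difference was -0.12 ± 0.05, adjusted p = 0.125 (edgeR), and -0.10 without the OSKM library of clone 1 (adjusted p = 0.221).

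Clones 1, 2 and 3 had 16.5, 16.4 and 16.4 CPM of Cdkn2d in MEF and 11.2, 14.3 and 17.2 CPM in OSKM. With B12 the values were 18.8, 17.3 and 16.0 CPM in MEF+B12 and 16.1, 16.7 and 17.1 CPM in OSKM+B12. The OSKM library of clone 1 was the lowest of the 12. The fitted induction difference of Cdkn2d was -0.14 ± 0.09, adjusted p = 0.339 (edgeR), and without that library it was -0.05, with an adjusted p of 0.664.

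In each B12 state singly, induction called 0 members, while 0.073% and 0.104% of all genes were called and 5 and 3 members had an unadjusted p under 0.05 (edgeR), as did 19.0% and 14.9% of genes. DESeq2 also called 0 in both. The response to induction differed between clones for 0 members and for 2.15% of genes, with 2 members at an unadjusted p under 0.05, Cdkn2c and Cdkn2d (edgeR), as were 14.8% of genes. Averaged over both B12 states, the 9 fibroblast markers had a median log2 difference of -0.19 with induction. Of them 4 were called lower, where 5.26% of all genes were. Without the OSKM library of clone 1, 1 of the 9 was called, and 0 were without clone 1 or without clone 2. Whether the marker difference bears on the members was not tested.

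**Figure D3:**
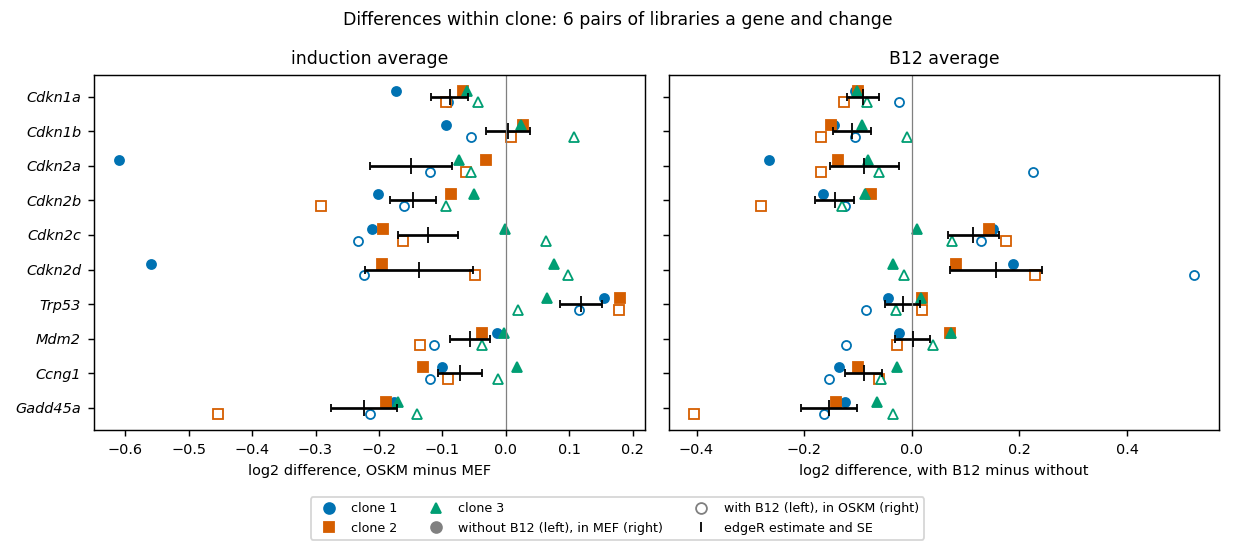
Log2 differences within clone for induction (left) and B12 (right), 6 pairs of libraries a gene, with the edgeR estimate and its SE in black. With induction Trp53 lies above 0 in 6 of 6 pairs and Gadd45a, Cdkn2b, Cdkn2a, Cdkn1a and Mdm2 lie below it, and the edgeR estimates run from -0.22 to 0.12.

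B12 was called to change 0 of the 10 members on average over both states, against 3.84% of all tested genes (edgeR), while 6 members and 15.5% of genes had an unadjusted p under 0.05. The closest was Cdkn2b, lower in 6 of 6 pairs by -0.28 to -0.08, with a fitted log2 difference of -0.14 ± 0.04, adjusted p = 0.0543. DESeq2 put it past the threshold (adjusted p = 0.0405), as did edgeR without the OSKM library of clone 1 (adjusted p = 0.0368). Over all settings its adjusted p ran from 0.0368 to 0.998.

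Lower values with B12 in 6 of 6 pairs were found for 5 members, Cdkn1a, Cdkn1b, Cdkn2b, Ccng1 and Gadd45a, and for 7.64% of genes. Their log2 differences were -0.09 ± 0.03, -0.11 ± 0.04, -0.14 ± 0.04, -0.09 ± 0.03 and -0.15 ± 0.05. Cdkn2c alone was higher in 6 of 6 pairs (0.11 ± 0.05, adjusted p = 0.271, edgeR), as were 8.0% of genes. Trp53 and Mdm2 had -0.02 ± 0.03 and 0.0014 ± 0.03 and moved both ways among the pairs. The members' median was -0.09, beside -0.01 over all tested genes.

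In OSKM and in MEF taken singly, B12 called 0 members by edgeR and by DESeq2, against 1.06% and 1.38% of genes, and 2 members had an unadjusted p under 0.05 in each, as did 9.82% and 10.3% of genes. The test of whether B12 acted differently in OSKM and MEF called 0 members and 0.0% of genes, and 0 members and 1.42% of genes had an unadjusted p under 0.05. Averaged over both states, the 11 macrophage markers had a median log2 difference of 0.57 with B12. Of them 10 were called higher, where 663 of all 19174 tested genes were called higher and 73 lower. Without clones 1, 2 and 3 in turn, 10, 1 and 8 macrophage markers were called. The 9 fibroblast markers had -0.11 with 0 called by edgeR, 3 at an unadjusted p under 0.05 and 1 called by DESeq2. Their part in the members' differences was not tested.

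Compared per length, Ccng1 and Cdkn1a were the most abundant members. The level of Ccng1 was 71.4 CPM per kb of exon (median of 12 libraries, 63.3 to 85.1) and that of Cdkn1a was 42.5 (37.6 to 48.5). Cdkn2a at 31.7 and Cdkn2b at 26.9 overlapped in range, at 11.3 to 38.1 and 17.1 to 31.3. This order did not hold in clone 1, where the median of Cdkn2a was 13.8 and that of Cdkn2b 18.9, beside 17.4 for Trp53. Over all libraries Trp53 (16.8) and Mdm2 (12.6) did not overlap in range. Gadd45a (11.4), Cdkn1b (10.5), Cdkn2d (10.4) and Cdkn2c (9.0) overlapped one another, and in clone 1 Gadd45a was the lowest member at 4.7 to 5.95. Cdkn1c, another CIP/KIP gene and no member, was far above them at 788 CPM per kb. With the longest transcript in place of all exons, Cdkn1a (72.5) came to the level of Ccng1, and the ranges of Trp53 (median 20.8) and Mdm2 (median 20.4) overlapped.

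**Figure D4:**
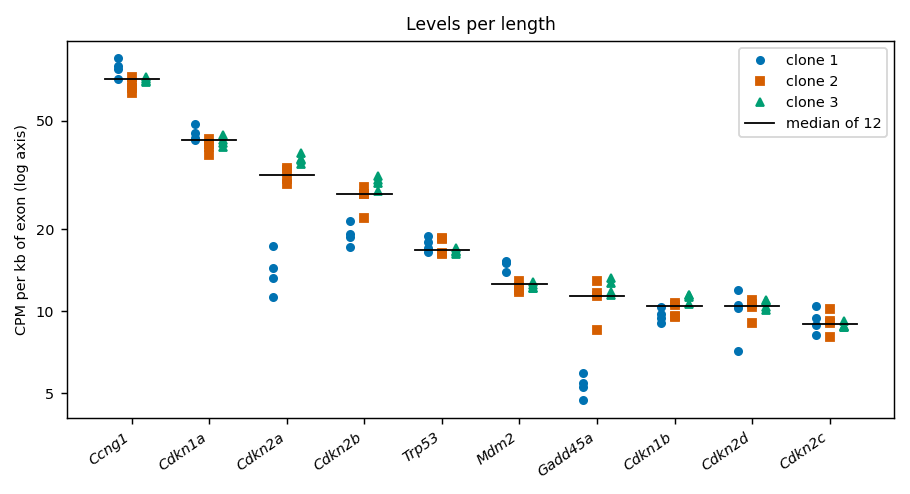
Level of each member in CPM per kb of exon (log axis) in the 12 libraries, ordered by the median, with clones as symbols. Medians run from 71.4 for Ccng1 to 9.0 for Cdkn2c, and clone 1 lies lowest for Cdkn2a, Cdkn2b and Gadd45a.

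Across the 12 libraries, which share clones and groups, Cdkn2a, Cdkn2b and Gadd45a had Pearson correlations of log2 CPM of 0.945 to 0.975 with each other. Mdm2 and Ccng1 had 0.847, Cdkn1a and Ccng1 had 0.903, and Cdkn2a and Mdm2 had -0.887. The genes most like Cdkn2a were Plekhf1 (0.986), Crebrf (0.986) and Lamp2 (0.983). For Cdkn1a they were Cep170b (0.948), Kif3c (0.947) and Cand2 (0.934), and for Trp53 they were Fmo1 (0.972), Nmt2 (0.965) and Dusp14 (0.962). These values are descriptions over 12 libraries that come from 3 embryos.

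The genes around the members were read from lists, beside the 9.73% of all tested genes called with induction, 4.46% higher and 5.26% lower. Of 26 other p53 targets, 5 were called with induction, 4 of them lower, with a median log2 difference of -0.05. The falls were Aen (-0.13), Eda2r (-0.23), Zmat3 (-0.19), which binds RNA, and Btg2 (-0.22), which slows proliferation, and Perp rose (0.80). Of 12 tested p53 regulators and relatives, Trp63, the p53 relative of epithelia, was called and rose (1.04, adjusted p = 0.00559, edgeR).

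Of the 23 cyclins, CDKs, Rb and E2F genes that the inhibitors act on, 2 were called higher with induction and 3 lower. Ccnd2 (-0.23), a cyclin gene, and Cdk6 (-0.24), whose kinase the INK4 proteins bind, fell with E2f1 (-0.16), while Ccne2 (0.23) and Tfdp1 (0.14) rose. Of 20 regulators of the Cdkn2a and Cdkn2b locus, Id1 (0.93) and Id2 (0.18) rose and Hmga2 (-0.21) fell. Of 6 other inhibitors and relatives, Gadd45b (-0.21) and Gadd45g (-0.35) fell and the antiproliferative gene Tob1 (0.26) rose.

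Of 13 tested senescence-associated genes, 4 were called lower with induction and 0 higher, with a median of -0.15. They were Mmp3 (-0.72), Igfbp7 (-0.15), Ccl2 (-0.25) and Mmp13 (-0.22). None of the 14 cycling genes was called with induction by edgeR or DESeq2, with 3 at an unadjusted p under 0.05 (edgeR) and a median of 0.05. Over these lists the induction average called 21 genes. Without the OSKM library of clone 1, 8 of them were called (Aen, Eda2r, Zmat3, Trp63, Ccnd2, Cdk6, Mmp3 and Igfbp7). Of the 21, 0 were called without clone 1, 0 without clone 2 and 18 without clone 3. No cell type marker was called with induction without clone 1 or without clone 2 either, so these losses were not particular to the lists. The 6 calls with B12 were all made without the OSKM library of clone 1, while 4, 1 and 2 were made without clones 1, 2 and 3. With B12, Mcm5 (0.24) and Pcna (0.17) of the 14 cycling genes were called higher. So were E2f2 (0.33) of the 23 cyclins, CDKs, Rb and E2F genes, and Ccl2 (0.73) and Plaur (0.22) of the 13 senescence-associated genes. Polk (-0.17) of the 26 other p53 targets was called lower. Of all 19174 tested genes, 663 were called higher with B12 and 73 lower. Ccl2 alone was called in each fit that left out a clone, and E2f2 and Polk were called in none of those fits.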

How the data were processed

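RNA-seq of 12 libraries in 4 groups was used. The authors prepared strand-specific poly(A) libraries, aligned read pairs with STAR (2.5.2 per the submitters' processing notes) to mm10 (GRCm38), and counted them per gene in reverse-stranded mode. The deposited table holds raw counts per gene, with the runs of a library summed, and reads matching several places may be split or lost. Symbols came from GENCODE annotation of the same build, which matched 55480 identifiers.

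Counts were tested with edgeR 4.0.16 (R 4.3.3), TMM scaling (0.934 to 1.06), filterByExpr and a quasi-likelihood F test with terms for group and clone, at an adjusted p under 0.05 over 19174 genes. A value after ± is a standard error. Clone entered as a block, since all 4 groups came from the same embryos. Libraries of a clone deviated together (r = 0.27 to 0.687 over 18 pairs, at most 0.17 between clones). Log2 CPM used a prior count of 2. Separate fits tested clone levels and clone-by-state responses. Alternatives included DESeq2 1.42.0, other scaling and filters, no block and leaving out clones. Counts carry no molecular identifiers, so depth covers counting error only. The code was tested on simulated data. An initial run exceeded its preset bound on false calls for the B12 average. The bound was then set on the mean of repeated runs, which met it, though some single runs did not. Members, lists and tests were chosen with earlier results of these data known. All 10 members are named, and from other lists genes past the threshold, at most 5 a list and comparison by smallest adjusted p, are named, with likeness by the 3 highest correlations. A gene of the senescence list is not reported here.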

Additional observations from a re-analysis of the deposited data

Results flagged for a closer look

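The response to induction differed between clones, by the F test of the clone-by-state terms in edgeR, for 4 genes of the lists and for none of the members. Of all tested genes 2.15% were called. Among the cell type markers, 2 endothelial, 2 macrophage, 1 neural and 1 epithelial marker were called. Adjusted p was 0.000625 for Mmp3, 0.00212 for Id1, 0.0118 for Perp and 0.0251 for Ccnd1. Without B12 the log2 differences in clones 1, 2 and 3 were -1.01, -1.13 and -0.11 for Mmp3 and 0.97, 1.43 and 0.0044 for Id1. They were 1.29, 0.92 and -0.09 for Perp and 0.21, 0.47 and -0.0072 for Ccnd1. Clone 3, where Pou5f1 was 2.86 and 2.33 CPM after induction, had the smallest difference of each of these genes without B12. Without the OSKM library of clone 1 all 4 were still called, with adjusted p of 0.000252 to 0.00793. Without clone 3 none was (0.871 to 0.963), and Ccnd1 was not called without clone 2 (0.318). The called markers were lost without clone 3 too (0.871 to 0.879), so that loss was not particular to these genes. Whether the level of the factors accounts for the differences between clones was not tested.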

How the results depend on the processing

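Of 820 values of single members under the 11 alternatives, 772 kept their side of the threshold and, where it was compared, their direction. Of the others, 24 lost a call, 3 gained one and 21 changed sign, with values of at most 0.061 in size. For the tests between clones only the adjusted p was compared, with no direction. Members called for the induction average fell from 3 to 1 with library totals and to 0 with no replicate block, where induction called 0 genes of all 19174, and ranged from 0 to 4 over the fits that left out libraries. For the B12 average DESeq2 called 1 in place of 0, and the fits that left out libraries called 0 to 1. Between clones these fits called 2 to 7. The block changed no other count of members. With library totals Cdkn1b (0.0403) and Mdm2 (0.036) changed sign for induction without B12, and Trp53 for B12 in MEF (0.029) and on average (0.00700). Fitted to only the libraries compared, Trp53 had 0.0013 for B12 in MEF. Mdm2, at 0.0015 for the B12 average, had -2.37e-05 with DESeq2 size factors, -0.000263 with DESeq2 and -0.0029 with no replicate block. Over the fits that left out libraries, the signs that changed lay within these ranges. Cdkn1b ran from -0.032 to 0.029 for induction without B12, from -0.026 to 0.055 with B12 and from -0.029 to 0.042 on average, and Cdkn2d ran from -0.14 to 0.0196 for induction with B12. With B12 in OSKM, Cdkn2a ran from -0.14 to 0.061 and Mdm2 from -0.064 to 0.0042. Trp53 ran from -0.012 to 0.024 for B12 in MEF and from -0.037 to 0.0089 on average, and Mdm2 from -0.012 to 0.041 on average. Over all settings, genes called ranged from 0 to 3056 for the induction average, 34 to 919 for the B12 average, 1315 to 7738 between clones and 0 to 1257 for the clone response. They ranged from 0 to 1322 and 0 to 1004 for induction without and with B12, and from 0 to 383 and 0 to 845 for B12 in OSKM and in MEF. Each group has 3 embryos, and the members had at least 564 counts in every library. Whether depth limits these comparisons was not tested.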
